A study of Mus musculus with 10 samples.

Results

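Plasma membrane amino acid transporters linked to the cellular stress response were examined in the livers of HFD-fed mice with and without hepatic overexpression of ASK1. The 10 genes were Slc3a2, Slc7a1, Slc7a2, Slc7a5, Slc7a11, Slc38a2, Slc38a3, Slc38a4, Slc1a4 and Slc6a9, chosen by gene name, and all 10 were found among the 54532 genes of the table. Of these, 8 had enough reads to be compared between genotypes. Slc7a1 and Slc7a11 did not, and their values are given without a test of the fold change.

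Bulk RNA sequencing was available for 10 livers, 1 per mouse, from 5 ASK1f/f and 5 ASK1+hep mice, which had eaten HFD for 7 weeks, starting when 6 weeks old, and were fasted for 5 h. Mice of both genotypes carry a murine ASK1 cDNA behind a floxed stop cassette in the ROSA26 locus, on a C57BL/6J background. In ASK1+hep mice Alb-Cre, which is active in hepatocytes, removes the stop cassette, whereas the ASK1f/f littermates have no Cre. A Cre-only control was not analysed here, so the transgene and Cre cannot be told apart. Expression is given as FPKM, the authors' read counts scaled by gene length and by a size per library, which allows levels of different genes to be compared. That size is not the number of reads on genes. The reads on genes were 0.941 to 1.12 times it, the highest in ASK1+hep replicate 3. Scaling by all reads, an alternative used below, puts the reads on genes in its place.

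Amino acid transporters couple nutrient supply to growth and to the stress response. When amino acids are scarce or the endoplasmic reticulum is stressed, the translation factor eIF2α is phosphorylated, the transcription factor ATF4 is made, and ATF4 raises genes of amino acid uptake and synthesis, among them several of the transporters described here. The liver also uses some of them for its own tasks: glutamine exchange with the blood, uptake of alanine and of cationic amino acids, and handling of glycine. Fgf21, which encodes a hormone released by the stressed liver, is another ATF4 target.

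The regulatory sequence that ties these genes to ATF4 is a composite C/EBP-ATF element, often spelled TGATGNAA. Promoter sequences from RefSeq (GRCm38.p6), 250 bases before to 50 after the start, were found for 7 of the 10 transporters, in 12 windows. No promoter sequence was matched for Slc7a2, Slc7a5 and Slc38a3. On either strand (TGATGNAA or its reverse complement TTNCATCA), the motif was in the windows of 2 of the 7 transporters, Slc7a11 and Slc1a4, and in those of 4.51% of the 27025 genes with a promoter sequence. Counted by window, 3.97% of 32851 held it. Both transporters carried the form TGATGCAA (reverse complement TTGCATCA), a case of the first motif, which 1.03% of genes held. Slc7a11 had it on the plus strand of the gene at -66 to -59 and again on the opposite strand at -47 to -40, and Slc1a4 had it on the opposite strand at -4 to 4, counted from the transcription start. Their sequences are shown beside those of Fgf21 and Asns, 2 ATF4 targets with higher values in ASK1+hep livers, with the motif in capitals and 5′ to 3′ on the strand of the gene. The stretches lie at chr3:50443614-50443719 (Slc7a11), chr11:20332710-20332757 (Slc1a4), chr7:45615582-45615669 (Fgf21) and chr6:7693210-7693272 (Asns), all on the minus strand.
Slc7a11: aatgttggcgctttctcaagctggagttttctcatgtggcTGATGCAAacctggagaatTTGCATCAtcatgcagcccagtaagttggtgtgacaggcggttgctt
Slc1a4: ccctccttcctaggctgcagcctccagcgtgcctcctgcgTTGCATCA
Fgf21: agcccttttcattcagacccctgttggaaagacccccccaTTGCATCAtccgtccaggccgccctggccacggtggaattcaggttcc
Asns: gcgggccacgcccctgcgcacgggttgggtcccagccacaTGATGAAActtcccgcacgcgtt
A match describes these letters only. The motif was also in the Trib3 window at 15 to 22, and its absence from the windows of the other 5 transporters concerns these stretches alone.

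The libraries held 13367742 to 16163378 reads on genes. Map3k5, the gene of ASK1, is counted from the transgene and the endogenous gene together. In ASK1f/f replicates 1 to 5 Map3k5 measured 6.74, 6.88, 5.77, 4.71 and 19.8 FPKM, and in ASK1+hep replicates 1 to 5 16.4, 11.1, 7.68, 12.4 and 15.2 FPKM. The highest of these values thus went against its label (ASK1f/f replicate 5), and results are given with and without that library. ASK1+hep replicate 3 also stood apart: the chi-square per degree of freedom between its reads and those of the other ASK1+hep livers was 104 to 222, against 48.8 to 80.9 among the other 4. Hepatocyte markers summed to 34862 to 44376 FPKM (ASK1f/f) and to 37769 to 49400 FPKM (ASK1+hep), so the defining markers of the labelled tissue were present. All 9 Kupffer cell and macrophage markers had lower fold changes, none past an unadjusted p of 0.05, and summed to 132 to 205 FPKM (ASK1f/f) and 83.1 to 205 FPKM (ASK1+hep). Erythroid markers summed to 333 to 490 and 324 to 1053 FPKM, and 2 of the 5 tested were higher at an unadjusted limma p under 0.05, Hba-a2 and Hbb-bt, against 3.05% of all genes. Pericentral hepatocyte markers, which include the transporter gene Slc1a2, summed to 3495 to 4819 and 4368 to 4778 FPKM, and 2 of 8 were higher at that limit, Glul (log2 fold change 0.42, no overlap between genotypes) and Oat (0.34). Of periportal markers 1 of 8 was lower at that limit, Cyp2f2 (-0.32), while the list split into 4 higher and 4 lower fold changes. Of the hepatocyte markers 1 of 8 was higher at that limit, Ttr (0.52), while 2 of the 8 had higher and 6 lower fold changes. Of all genes 3.05% were higher and 2.71% lower at that limit. The single markers were all named after their values were seen. Endothelial markers had lower fold changes in 6 of 7 and stellate cell and fibroblast markers in 6 of 8, none past that limit. None of these markers was at 0 in all livers. Their part in the transporter values was not tested, and in bulk tissue fewer cells of a type and less RNA per cell cannot be told apart.

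The transporters covered a wide range of levels in these livers. Slc38a3, encoding the glutamine carrier SNAT3 (system N), was the highest, at a mean of 348 FPKM over 10 livers, above 98.9% of the genes tested. Slc38a4, encoding SNAT4, a carrier of neutral amino acids, followed at 250.4 FPKM. Together these 2 members of the SLC38 family made up most of the summed FPKM of the 10 genes, Slc38a3 50.7% and Slc38a4 36.5%. Next came Slc7a2, encoding the cationic amino acid carrier CAT2, at 52.4 FPKM, Slc38a2, encoding the system A carrier SNAT2, at 19.1 FPKM, and Slc3a2, encoding the CD98 heavy chain, at 11.0 FPKM. Slc6a9, encoding the glycine transporter GlyT1, was at 3.55 FPKM. Slc1a4, encoding the alanine, serine and cysteine carrier ASCT1, was at 1.01 FPKM and Slc7a5, encoding the LAT1 light chain, at 0.845 FPKM. Slc7a1, encoding the cationic carrier CAT1, was at 0.0614 FPKM, and Slc7a11, encoding the cystine carrier xCT, was close to 0.

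The order was the same in every liver for most neighbours. Slc38a3 lay above Slc38a4, Slc38a4 above Slc7a2, Slc7a2 above Slc38a2, Slc3a2 above Slc6a9 and Slc6a9 above Slc1a4 in 10 of 10 livers. Slc38a2 was above Slc3a2 in 8 of 10 livers. Slc1a4 and Slc7a5 did not differ beyond their spread, with Slc1a4 higher in 6 of 10 livers. Among 42 other amino acid transporters, 19 passed the filter and 11 were at 0 in all livers. The highest of them, Slc6a13, a carrier of GABA and taurine, was at a mean of 68.5 (ASK1f/f) and 72.7 FPKM (ASK1+hep), below every value of Slc38a3 and Slc38a4.

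**Figure D1:**
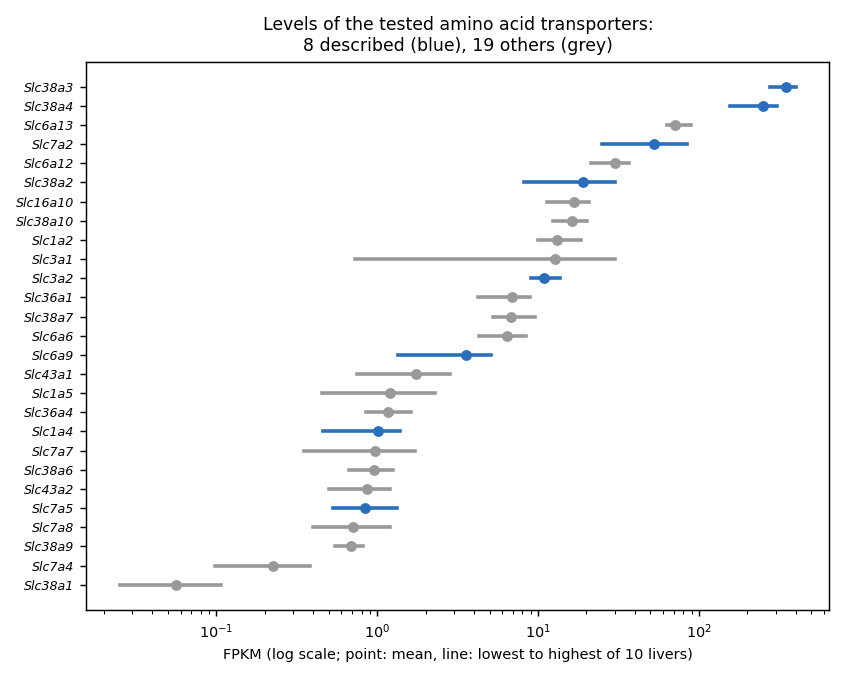
Level of each tested amino acid transporter in FPKM on a log axis, with the mean of 10 livers as a point and the lowest to the highest liver as a line, blue for the 8 transporters described and grey for 19 others. Slc38a3 (348 FPKM) and Slc38a4 (250.4 FPKM) head the order, and Slc1a4 and Slc7a5 lie near 1 FPKM.

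The comparison of ASK1f/f with ASK1+hep livers asked whether these transporters differ when ASK1 is overexpressed in hepatocytes. None of the 8 tested did so past the threshold. With limma on log2(FPKM + 1) and Benjamini-Hochberg adjustment over 13261 genes, 0 transporters had an adjusted p of 0.05 or less, as did 0 of all genes tested (0%), and 0 transporters had an unadjusted p under 0.05, against 765 of all genes (5.77%). Log2 fold changes were higher in ASK1+hep for 3 of the 8 and lower for 5, with a median of -0.10, whereas 48.1% of all genes were higher and their median was -0.01. Log2 fold changes are ASK1+hep minus ASK1f/f after adding 1 to each FPKM, so that changes of genes at low levels come out smaller than they are. The values of the genotypes overlapped for each of the 8, while 114 of all genes (0.86%) showed no overlap.

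**Figure D2:**
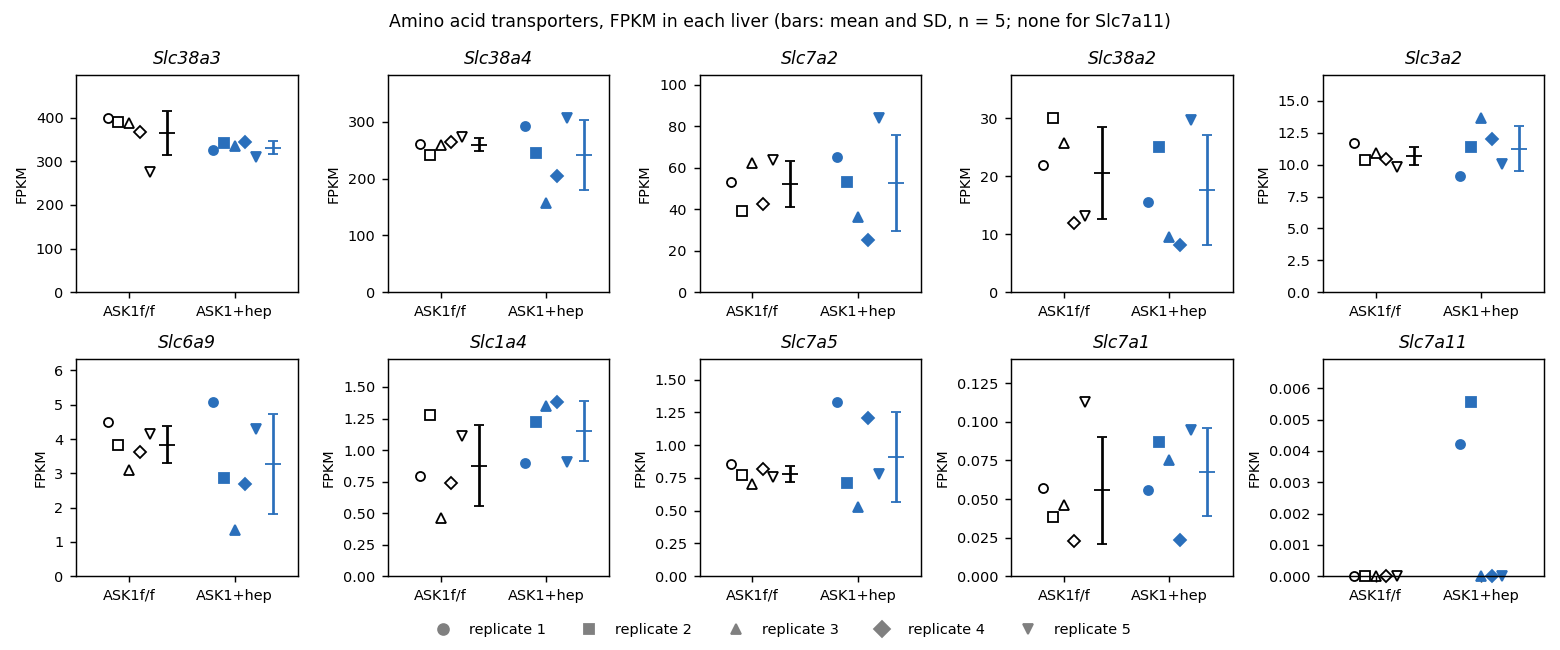
FPKM of the 10 transporters in each of 5 ASK1f/f (open black) and 5 ASK1+hep (filled blue) livers, marker shape giving the replicate number, with mean and SD at the side (none for Slc7a11, listed at 0 in 8 livers); each axis starts at 0. The genotypes overlap for the 8 tested genes. Of these, Slc38a4, Slc6a9, Slc7a5, Slc7a2, Slc3a2 and Slc38a2 have a higher coefficient of variation in ASK1+hep livers, and Slc38a3 and Slc1a4 a lower one. How many of all genes spread more widely there was not counted.

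Slc38a3 was at 399, 391, 389, 366 and 277 FPKM in replicates 1 to 5 of ASK1f/f, against 325, 343, 336, 344 and 311 FPKM in replicates 1 to 5 of ASK1+hep. ASK1f/f replicates 1 to 4 lay above all ASK1+hep livers, and ASK1f/f replicate 5 below all of them. The means were 364 ± 50.6 and 332 ± 13.9 FPKM (SD, n = 5 each). The log2 fold change was -0.12 (SE 0.13, 95% interval -0.41 to 0.16, limma adjusted p = 0.842, exact two-sided permutation p = 0.262), and -0.22 (unadjusted limma p = 0.089) without ASK1f/f replicate 5. The gene lies on chr9:107650634-107669530 (minus strand, GRCm38) and has 15 exons in its longest coding transcript.

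Slc38a4 was at 261, 241, 260, 264 and 272 FPKM in replicates 1 to 5 of ASK1f/f, against 293, 245, 157, 204 and 306 FPKM in replicates 1 to 5 of ASK1+hep. The ASK1f/f livers were close together, whereas 2 ASK1+hep livers lay above and 2 below all of them. The coefficient of variation was 4.51% in ASK1f/f and 25.7% in ASK1+hep livers. Between genotypes the log2 fold change was -0.15 (SE 0.18, 95% interval -0.53 to 0.24, limma adjusted p = 0.857, exact permutation p = 0.476), and it moved to -0.0037 without ASK1+hep replicate 3, the liver with the lowest value, and to -0.24 without ASK1+hep replicate 5, the liver with the highest.

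Slc38a2 is the SLC38 member best known for its induction by amino acid shortage. It was at 22.0, 30.0, 25.7, 11.9 and 13.1 FPKM in replicates 1 to 5 of ASK1f/f, against 15.5, 25.1, 9.53, 8.21 and 29.6 FPKM in replicates 1 to 5 of ASK1+hep. Both genotypes held high and low livers, and the highest liver was 3.66 times the lowest. The log2 fold change was -0.29 (SE 0.36, 95% interval -1.08 to 0.50, limma adjusted p = 0.861, exact permutation p = 0.476), a wide interval around 0. With each liver left out in turn it ran from -0.51 without ASK1+hep replicate 5 to -0.07 without ASK1+hep replicate 4. It was -0.12 without ASK1+hep replicate 3, -0.14 without ASK1f/f replicate 2, -0.19 without ASK1f/f replicate 3, and -0.45 without either ASK1+hep replicate 2 or ASK1f/f replicate 4.

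Slc38a2 (chr15:96687392-96699730) and Slc38a4 (chr15:96994820-97055956) are neighbours on the minus strand of chromosome 15, with 16 and 15 exons. Their values did not run closely together over the livers: after the genotype means were subtracted, Pearson's r was 0.53 and Spearman's rho 0.50 over 10 livers, and r was 0.17 without the 2 livers farthest from the median.

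Slc3a2 encodes the heavy chain that carries several light chains, LAT1 and xCT among them, to the membrane. It was at 11.7, 10.4, 10.9, 10.5 and 9.85 FPKM in replicates 1 to 5 of ASK1f/f, against 9.11, 11.4, 13.7, 12.1 and 10.1 FPKM in replicates 1 to 5 of ASK1+hep. This was among the steadiest of the transporters, the highest liver being 1.50 times the lowest. Between genotypes the log2 fold change was 0.06 (SE 0.11, 95% interval -0.19 to 0.31, limma adjusted p = 0.906, exact permutation p = 0.587). Its direction turned without ASK1+hep replicate 3 (-0.0076) and with scaling by all reads (-0.013), where the median of all genes also moved from -0.01 to -0.05. Slc3a2 lies on chr19:8706882-8723369 (minus strand, 10 exons).

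The light chains were low beside it. Slc7a5 was at 0.856, 0.771, 0.703, 0.815 and 0.753 FPKM in replicates 1 to 5 of ASK1f/f, against 1.33, 0.709, 0.528, 1.21 and 0.783 FPKM in replicates 1 to 5 of ASK1+hep. As for Slc38a4, the ASK1f/f livers were close together and ASK1+hep livers lay on both sides of them, 2 above and 1 below, on 27 to 84 reads per liver. The log2 fold change was 0.09 (SE 0.11, 95% interval -0.15 to 0.32, limma adjusted p = 0.866, exact permutation p = 0.429). It was 0.17 with limma-voom, 0.34 with quality weights and 0.14 on log2(FPKM + 0.1), but 0.0092 without ASK1+hep replicate 1, 0.03 without ASK1+hep replicate 4 and 0.16 without ASK1+hep replicate 3. Slc7a5 lies on chr8:121881150-121907694 (minus strand, 10 exons). Slc7a11 (chr3:49892526-50443614, minus strand, 12 exons) had 2 reads in all, 1 each in ASK1+hep replicates 1 and 2, and is listed at 0 in the other 8 livers. At this depth 3 reads correspond to 0.0126 to 0.0167 FPKM of Slc7a11, so a level up to about that could not be told from 0.

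The 2 cationic amino acid carriers differed widely in level. Slc7a2 was at 53.0, 39.1, 62.5, 42.4 and 63.8 FPKM in replicates 1 to 5 of ASK1f/f, against 65.2, 53.2, 36.2, 25.0 and 84.0 FPKM in replicates 1 to 5 of ASK1+hep. ASK1+hep livers took the 2 lowest and the 2 highest values, so that the means were nearly the same, 52.2 ± 11.3 and 52.7 ± 23.3 FPKM (SD, n = 5 each). Between genotypes the log2 fold change was -0.08 (SE 0.29, 95% interval -0.71 to 0.55, limma adjusted p = 0.960, exact permutation p = 0.810), with a turned direction without ASK1+hep replicate 3 (0.02) or 4 (0.15), and it was -0.27 without ASK1+hep replicate 5. Slc7a2 lies on chr8:40862396-40922308 (plus strand, 11 exons), and 6.95% of its exonic bases are shared with the lincRNA gene Gm26584 on the opposite strand. Slc7a1 (chr5:148327410-148399904, minus strand, 13 exons) had 4 to 20 reads per liver, and 6 livers had at least 10. After scaling to the median of the library sizes that the FPKM imply, 4 livers reached the minimum of 10, where 5 were needed. It was at 0.0571, 0.0386, 0.0464, 0.0228 and 0.113 FPKM in replicates 1 to 5 of ASK1f/f, against 0.0559, 0.0872, 0.0755, 0.0235 and 0.0944 FPKM in replicates 1 to 5 of ASK1+hep. All 5 ASK1+hep values lay within the ASK1f/f range (exact permutation p = 0.548).

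The remaining transporters carry small neutral amino acids. Slc1a4 was at 0.793, 1.28, 0.460, 0.736 and 1.11 FPKM in replicates 1 to 5 of ASK1f/f, against 0.896, 1.22, 1.35, 1.38 and 0.906 FPKM in replicates 1 to 5 of ASK1+hep. Of the ASK1+hep livers, 2 lay above all ASK1f/f livers and none below. Slc1a4 had the lowest p of the 8, with a log2 fold change of 0.21 (SE 0.12, 95% interval -0.06 to 0.48, unadjusted limma p = 0.119, adjusted p = 0.813, exact permutation p = 0.167). The fold change was 0.41 on log2(FPKM + 0.1), 0.44 with limma-voom and 0.54 with quality weights. Leaving out each liver in turn, it ran from 0.12 without ASK1f/f replicate 3 to 0.28 without ASK1f/f replicate 2. Of all 20 alternatives, the last named alone brought its unadjusted limma p below 0.05, to 0.037. Slc1a4 lies on chr11:20302180-20332713 (minus strand, 8 exons).

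Slc6a9 was at 4.51, 3.82, 3.11, 3.63 and 4.13 FPKM in replicates 1 to 5 of ASK1f/f, against 5.08, 2.87, 1.36, 2.70 and 4.31 FPKM in replicates 1 to 5 of ASK1+hep. Of the ASK1+hep livers, 3 lay below all ASK1f/f livers and 1 above. The log2 fold change was -0.25 (SE 0.22, 95% interval -0.73 to 0.23, limma adjusted p = 0.821, exact permutation p = 0.373), and it ran from -0.40 (unadjusted limma p = 0.077) without ASK1+hep replicate 1 to -0.05 without ASK1+hep replicate 3. Slc6a9 lies on chr4:117834506-117875198 (plus strand, 13 exons). Of its exonic bases 27.8% are shared with Ccdc24 and 9.94% with Gm17114 on the opposite strand, and since strand-aware counting is not stated, its level is uncertain.

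Leaving out ASK1f/f replicate 5, whose Map3k5 value goes against its label, gave log2 fold changes from -0.42 (Slc38a2) to 0.25 (Slc1a4), and still 0 of 8 transporters had an unadjusted limma p under 0.05. With scaling by all reads the log2 fold changes of Slc38a3, Slc38a4 and Slc7a2 moved to -0.20, -0.23 and -0.16, and with limma-voom quality weights that of Slc3a2 moved to 0.02. Over all 20 alternatives, 6 of the 8 transporters kept their direction, and the lowest adjusted limma p of any of them was 0.409, for Slc1a4.

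Other genes of the stress response lay beside them as follows. Of 35 stress response and ATF4 target genes, 32 were tested, 24 had higher and 8 lower log2 fold changes in ASK1+hep livers, with a median of 0.12, and none passed the adjusted threshold. At an unadjusted limma p under 0.05, 5 were higher and 0 lower, against 3.05% and 2.71% of all genes. The list was chosen with earlier results of these data known and holds Fgf21. The paper reported Fgf21 as highly raised in these livers, with DESeq2 rather than the limma fit used here. These counts therefore describe the list and are no independent test of it. Without ASK1f/f replicate 5, 8 of the list were at that limit, both directions together, against 778 of all genes. The 5 were Fgf21 (log2 fold change 2.06, adjusted p = 0.349), Asns, the asparagine synthetase gene (1.56, adjusted p = 0.734), Trib3, a pseudokinase gene (0.70), Ppp1r15a, encoding a phosphatase subunit that dephosphorylates eIF2α (0.54), and Gdf15, encoding a stress hormone (0.70). The last 3 each had an adjusted p of 0.813. Fgf21 was at 4.28, 4.74, 2.46, 2.97 and 3.21 FPKM in the ASK1f/f replicates, against 12.3, 25.0, 30.1, 23.4 and 7.40 FPKM in the ASK1+hep replicates, with no overlap. Atf4 itself was at 32.5 ± 5.13 and 45.8 ± 17.0 FPKM (SD, n = 5 each; log2 fold change 0.41, 95% interval -0.09 to 0.91, limma adjusted p = 0.813). On log2(FPKM + 1) the 95% intervals of all 8 transporters lay below the lower bound of Fgf21, 1.36.

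Of the 19 other amino acid transporters tested, 7 were higher and 12 lower, with a median log2 fold change of -0.05. At an unadjusted limma p under 0.05, 1 was lower and 0 higher, against 2.71% and 3.05% of all genes. It was Slc36a1, encoding the proton-coupled carrier PAT1, at 7.98 ± 0.758 and 5.88 ± 1.29 FPKM (SD, n = 5 each; log2 fold change -0.40, adjusted p = 0.813), with all ASK1+hep livers below all ASK1f/f livers. Of 12 genes of glutathione synthesis and the NRF2 oxidative stress response, 9 were higher, and at an unadjusted limma p under 0.05 1 was higher, the glutathione synthetase gene Gss (0.39, named after its value was seen), and of 20 genes of amino acid sensing by mTORC1 none did.

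**Figure D3:**
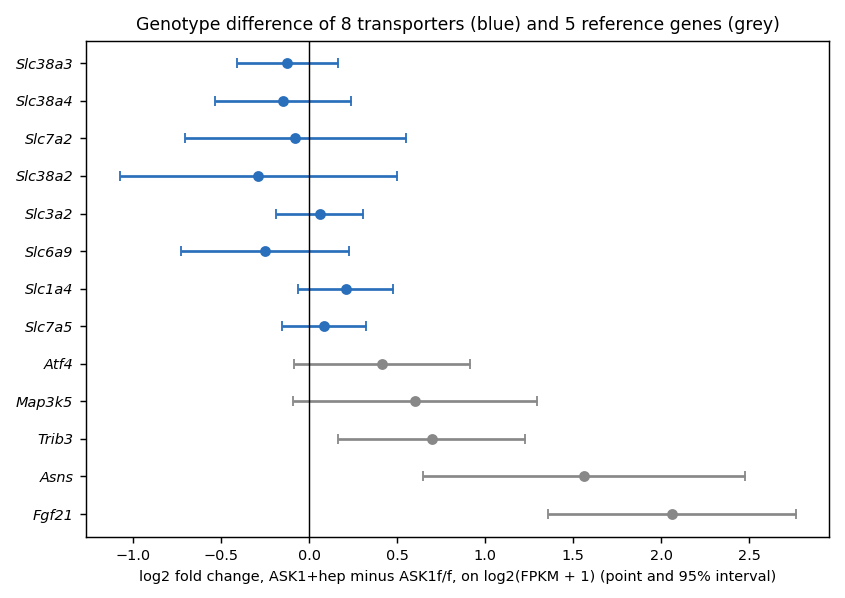
Log2 fold change (ASK1+hep minus ASK1f/f, on log2(FPKM + 1)) with its 95% interval for 8 transporters in blue and Atf4, Map3k5, Trib3, Asns and Fgf21 in grey. Each transporter's interval includes 0, the widest being -1.08 to 0.50 for Slc38a2 and the narrowest -0.15 to 0.32 for Slc7a5. Those of Trib3, Asns and Fgf21 do not include 0. Adding 1 to each FPKM also narrows the intervals of genes at low levels: the SE of Slc7a5 is 0.11 here and 0.25 with limma-voom.

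The transporters did not vary together as a group across livers. After the genotype means were subtracted, Pearson's r between pairs of the 8 ran from -0.87 to 0.92 over 10 livers, with a median of -0.16, and was positive for 12 of 28 pairs. The pairs named in the following were chosen after their values were seen, and no test is given. Where livers were left out of r, here and elsewhere, the genotype means of all 10 livers were kept. Slc38a4 and Slc6a9 had the highest r, 0.92 (rho 0.78, and r 0.80 without the 2 livers farthest from the median). Slc3a2 went the other way, with r = -0.87 (rho -0.81) to Slc38a4 and -0.85 (rho -0.73) to Slc6a9, and r was -0.68 and -0.47 without the 2 livers farthest from the median. These relations, and that of Slc3a2 with Atf4, rested mainly on the ASK1+hep livers, where Slc38a4 ranged from 157 to 306 FPKM and Slc6a9 from 1.36 to 5.08 FPKM, against 241 to 272 and 3.11 to 4.51 FPKM in ASK1f/f livers. With 5 livers per genotype no r is given within 1 genotype. The heavy chain gene and its light chain gene Slc7a5 had r = -0.53 and rho = -0.22, and r was 0.54 without the 2 livers farthest from the median, so no steady relation was seen.

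Atf4 ran with the same axis. Its r within genotypes was -0.93 with Slc38a4 (rho -0.94, r -0.92 without the 2 farthest livers), -0.88 with Slc6a9, -0.85 with Slc7a2 and 0.86 with Slc3a2 (rho 0.75, r 0.65 without the 2 farthest livers). In plain values, ASK1+hep replicates 3 and 4 had the highest Atf4, 66.9 and 58.8 FPKM, the highest Slc3a2 of all livers and the lowest Slc38a4 and Slc7a2. Such correlations were common: 19.8% of the other 13260 genes had an r of at least 0.8 in size with Slc38a4, 14.4% with Slc6a9, 9.10% with Slc3a2 and 10.4% with Atf4, against 1.08% to 3.89% for the other 5 transporters tested.

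**Figure D4:**
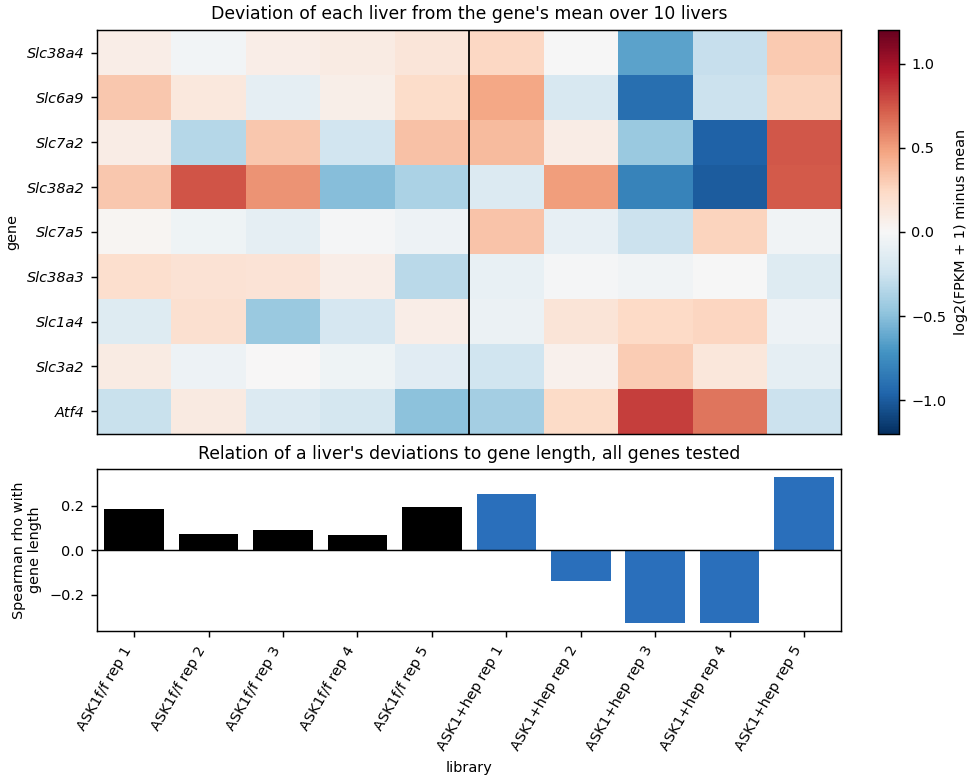
Upper panel, log2(FPKM + 1) of 8 transporters and Atf4 in each liver minus the gene's mean over 10 livers, red for higher and blue for lower, with a line between genotypes; lower panel, Spearman's rho between each liver's deviations and gene length over all genes tested. ASK1+hep replicates 3 and 4 are low in Slc38a4 and Slc7a2, high in Slc3a2 and Atf4, and have the lowest rho with length, -0.33 each.

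A property of the libraries moved along with this. The Spearman correlation between a liver's deviations and gene length was 0.0698 to 0.194 in ASK1f/f livers and 0.25, -0.14, -0.33, -0.33 and 0.33 in ASK1+hep replicates 1 to 5, and length and GC content together accounted for 16.9%, 9.16% and 25.2% of the variance of the deviations in ASK1+hep replicates 3, 4 and 5, against 1.48% to 5.62% in the other 7 livers. After correction for length and GC content, r was -0.90 for Slc38a4 and Atf4, 0.94 for Slc38a4 and Slc6a9, -0.75 for Slc38a4 and Slc3a2 and 0.76 for Slc3a2 and Atf4. The values share libraries and depth, and the part of other properties that vary with gene length was not tested.

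Slc38a3, the highest transporter, had an r within genotypes of -0.83 with Map3k5 (rho -0.52), with the highest Map3k5 and the lowest Slc38a3 in ASK1f/f replicate 5. Without that liver r was -0.43, and without the 2 livers farthest from the median -0.48. Both values kept the genotype means of all 10 livers, which ASK1f/f replicate 5 shifts, so a difference between genotypes is left in them. They therefore do not show that a negative relation remains within genotypes without that liver. The size of the relation rests on ASK1f/f replicate 5.

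For each transporter the closest genes in pattern were sought among 10035 genes with a mean of at least 1 FPKM, by Pearson's r over the 10 livers, genotypes pooled. They were Vcl (0.99) and Usp33 (0.99) for Slc38a4, Nab1 (0.97) and Naa25 (0.96) for Slc6a9, and Dicer1 (0.96) and Otud4 (0.96) for Slc7a2. Gm17201 (0.97) and Smim22 (0.95) came closest to Slc3a2. Tat (0.95), encoding the hepatocyte enzyme tyrosine aminotransferase, and Yod1 (0.92) were closest to Slc38a2. Prlr (0.93), the prolactin receptor gene, and Sugct (0.92) were closest to Slc38a3, Gm7730 (0.93) and Lhx6 (0.93) to Slc1a4, and Chfr (0.91) and Gm8325 (0.88) to Slc7a5. These r are the highest of many values and carry no test. Gm17201, Smim22, Gm7730 and Gm8325 are short genes, of 390, 561, 454 and 464 bases. The other genes named here ran from 2405 bases (Tat) to 16750 bases (Dicer1). The part of gene length in these values was not tested.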

How the data were processed

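The authors' provider purified poly-A RNA, cleaned reads (fastp is listed in the submitters' processing notes), mapped them with Hisat2, counted them with FeatureCounts, and the authors deposited FPKM per gene. The genome build, annotation and use of strand are not given in the sources used here. Of the deposited genes, 54409 were found in GENCODE M21 (GRCm38), 98.3% at the same position. FPKM times length gave whole reads (largest distance from whole 0.000178), used for depth, filter and limma-voom. Genes were kept that reached 10 reads, scaled to the median FPKM-implied library size, in 5 or more livers and 15 over all livers. They were compared with limma 3.58.1 (R 4.3.3, trend) on log2(FPKM + 1), since the deposited values are FPKM. The paper used DESeq2 at an adjusted p of 0.05 or less, so calls here need not match its own. DESeq2 was not run on the recovered reads. Single genes also had exact two-sided permutation tests, which can reach 0.00794 at the lowest. Groups came from the genotype labels, and replicate numbers follow the order of the samples within each genotype. Named were all 10 transporters, Map3k5, Fgf21, Atf4, the closest 2 genes in pattern of each, and, at an unadjusted p under 0.05, up to 6 other transporters and 6 stress response genes; others are marked. The members and gene lists were chosen with earlier results of these data known. Mice were separate animals.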

Additional observations from a re-analysis of the deposited data

Results flagged for a closer look

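In 2 of 24 groups of 5 livers examined, 1 liver lay far from the other 4, where chance alone gives about 1 in 20 groups. Both were in the library labelled ASK1f/f replicate 5. Slc38a3 was at 277 FPKM there, and the gap to the next liver was 0.731 of the range of the group (limit 0.71). Map3k5 was at 19.8 FPKM there, with a gap of 0.856 of the range. No other transporter was past the limit in either genotype.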

How the results depend on the processing

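Across 20 alternatives (10 of them leaving out a liver in turn), 0 transporters passed the adjusted threshold. Slc3a2 reversed with scaling by all reads (-0.0134) and over livers left out ran from -0.0076 to 0.13, and Slc7a2 from -0.27 to 0.15 (reversed at 0.0241 and 0.153), and the cause was not tested. Transporters at an unadjusted p under 0.05 numbered 0 to 1 with a liver left out, and 0 otherwise. All genes past the adjusted threshold numbered 1 with voom quality weights and 0 to 1 with a liver left out, the 1 being Fgf21 (2.38 with quality weights and 2.35 without ASK1+hep replicate 5). Genes at an unadjusted p under 0.05 numbered 1222 of 26389 without a filter. With a liver left out they numbered 553 to 1722 of 13261, the highest without ASK1+hep replicate 5. Stress response genes at that limit numbered 9 with quality weights and 3 to 9 with a liver left out. Other transporters there numbered 2 with log2(FPKM + 0.1), 10 reads in every liver, limma-voom, scaling by all reads, the tag prefix or length and GC correction, 3 with quality weights, and 1 to 4 with a liver left out. The r of Slc3a2 and Slc7a5 reversed to 0.54 without the 2 farthest livers. Same-numbered livers had a mean r of 0.108 (0.022 to 0.174, 2 of 5 pairs above 0.1), against -0.0277 for differently numbered livers. Of the ASK1f/f livers, 4 of 5 correlated best with their own number. The main fit did not take the numbers as pairs, and whether they mark pairs was not settled. Animal tags in the labels are consecutive for 4 of the 5 numbers, and the controls are littermates, but the labels do not say that a number marks a litter. Within numbers, Slc38a2 and Slc38a3 were each lower in the ASK1+hep liver in 4 of 5, the exception being number 5. Slc3a2 was higher in 4 of 5, and the other tested transporters were more evenly split. These genes were named after their values were seen, and the share of all genes with such a split was not counted. With the replicate block, 0 transporters and 3 other transporters had an unadjusted p under 0.05 (4 with length and GC correction), as did 874 of all genes. Length and GC correction, with and without the block, and leaving livers out of r were chosen after seeing the data. Low reads limit Slc7a1, Slc7a11, Slc7a5 and Slc1a4, and 5 livers per genotype limit the rest.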
